A study of Mus musculus with 12 samples.

Results

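The subunits of the mitochondrial respiratory chain and of ATP synthase are encoded by 2 genomes, the nuclear genome and the small circular genome of the mitochondrion. All protein-coding genes whose mouse symbol matches the patterns for complex I (Nduf a, b, c, s and v), complex II (Sdh), complex III (Uqcr), complex IV (Cox4 to Cox8), complex V (Atp5) or the mitochondrial genome (mt-) were taken, without the Ndufaf assembly factors. This gave 97 of the 53715 genes listed, 84 of them nuclear and 13 mitochondrially encoded. By complex, 42 genes belong to complex I, 4 to complex II, 9 to complex III, 23 to complex IV and 19 to complex V. Ndufa4 and its paralogue Ndufa4l2 carry a complex I name and were counted with complex IV, where the Ndufa4 protein is found. Atp5s, a regulatory factor, and Cox7a2l, a factor that joins complexes III and IV, match the patterns without being core subunits.

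RNA was measured in 12 libraries of C57BL/6JOlaHsd mouse liver cells, 4 biological replicates in each of 3 groups. Hepatoblasts were Dlk1-positive cells taken by magnetic sorting at E14.5, each preparation from pooled embryonic livers, and were lysed at once. Diff. hepatocytes were hepatoblasts of that kind after 4 days, by the description of the data set, in a dexamethasone medium with Matrigel on fibronectin (protocol 1), and mature hepatocytes came from collagenase-perfused livers of adult males aged 8 to 12 weeks. Poly(A) RNA was read as 75-bp single reads from libraries the study calls strand-specific, and the counts on genes of a library came to 21523329 to 25216977 for hepatoblasts, 19581551 to 22026087 for Diff. and 20043218 to 23791477 for mature hepatocytes. Diff. hepatocytes differ from both other groups by culture, and age, sex and isolation differ between embryo and adult, so these cannot be told apart from the state of the cells.

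Complexes I, III and IV pump protons across the inner mitochondrial membrane as electrons pass to oxygen, complex II feeds electrons in from the citric acid cycle, and complex V uses the proton gradient to make ATP. The mitochondrial genome encodes core membrane subunits of each complex except complex II, and every other subunit is made in the cytosol and imported. Adult hepatocytes are rich in mitochondria and rely on oxidative metabolism, and several complex IV subunits exist as paralogues known from heart and skeletal muscle or from testis.

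The labels were checked against marker genes, whose levels are given in CPM, read counts scaled to a common library size by TMM factors. The fetal proteins Dlk1 and Afp together summed to 30041, 43593, 47124 and 50685 CPM in the 4 hepatoblast libraries, to 16053 to 20507 CPM in Diff. hepatocytes and to 35.2 to 64.5 CPM in mature hepatocytes. Most of each sum was Afp, which fell by 1.0799 on the log2 scale in Diff. hepatocytes against hepatoblasts, while the sort marker Dlk1 fell by 5.23. The amino acid enzyme Tat stood at 2.03 to 2.62 CPM in hepatoblasts, 520.2 to 849 CPM in Diff. and 2225 to 2765 CPM in mature hepatocytes. The 7 hepatocyte markers, led by Alb, summed to 110149 to 153801 CPM in mature hepatocytes, 53463 to 62006 CPM in Diff. hepatocytes and 32964 to 55785 CPM in hepatoblasts, where the last 2 groups overlapped. Of these 7, 4 were called higher in Diff. hepatocytes against hepatoblasts and 0 lower by edgeR, with log2 fold changes from -0.88 to 8.28, the highest that of Tat, and a median of 1.05. All 7 were called higher in mature hepatocytes against hepatoblasts. With library totals 3 were higher and 1 lower in Diff. hepatocytes, and 4 higher in mature hepatocytes. Markers of other cells were present too. The 10 erythroid markers, led by Hbb-bs, summed to 3067, 622, 512 and 377 CPM in hepatoblasts, to 7.15 to 29.7 CPM in Diff. hepatocytes and to 135 to 185 CPM in mature hepatocytes. In mature hepatocytes 130 to 177 CPM of this came from Alas2, which was called higher there than in hepatoblasts at 2.13, though not with library totals, at 1.22, while the 9 other markers were called lower. The 8 mesenchymal markers, led by Col1a1, summed to 2957, 1451, 2001 and 1216 CPM in Diff. hepatocytes, 677 to 1321 CPM in hepatoblasts and 48.5 to 65.4 CPM in mature hepatocytes. Erythroid RNA was highest in hepatoblasts replicate 1 and mesenchymal RNA in Diff. hepatocytes replicate 1, and in these bulk samples fewer cells of a type and less RNA per cell cannot be told apart. The 8 endothelial markers, led by Stab2, summed to 131 to 237 CPM in mature hepatocytes, 43.4 to 145 CPM in hepatoblasts and 28.7 to 32.0 CPM in Diff. hepatocytes. The 9 macrophage markers, led by Cd5l, summed to 141 to 270 CPM, 89.7 to 378 CPM and 27.1 to 184 CPM in the same order. The 5 bile duct markers, led by Krt19, summed to 70.0 to 213 CPM in Diff. hepatocytes, 12.9 to 15.1 CPM in hepatoblasts and 15.4 to 40.7 CPM in mature hepatocytes. Under TMM their log2 fold changes ran from 0.01 to 4.75 in Diff. hepatocytes and from -2.17 to 1.99 in mature hepatocytes, each against hepatoblasts. In Diff. against mature hepatocytes they ran from -0.96 to 6.18, so the sums hide genes that went opposite ways. The paper reports that Dlk1-positive cells of E14.5 livers included some positive for Sox9. Hepatoblasts replicate 1 was highest of its group in endothelial RNA, at 145 CPM against 43.4 to 67.7, and macrophage RNA, at 378 against 89.7 to 109. Diff. hepatocytes replicate 1 was highest of its group in macrophage RNA, at 184 CPM against 27.1 to 89.2, and bile duct RNA, at 213 against 70.0 to 93.5. Each of these 5 lists had all its genes tested and none at 0 in all libraries, and the part of these cells in the levels below was not tested except where a value is given.

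Counts on the mitochondrially encoded subunit genes made up a larger share of mature hepatocyte libraries than of the others. The share was 2.31%, 2.23%, 1.98% and 2.30% of the counts on genes in the hepatoblast libraries, with a mean of 2.20% ± 0.154 (SD, n = 4). It was 2.004%, 1.81%, 1.90% and 1.89% in Diff. hepatocytes, with a mean of 1.90% ± 0.0811 (SD, n = 4), and 3.14%, 3.76%, 2.92% and 3.45% in mature hepatocytes, with a mean of 3.32% ± 0.365 (SD, n = 4). Mature hepatocytes lay above both other groups in every library, while Diff. hepatocytes and hepatoblasts overlapped through hepatoblasts replicate 3 and Diff. hepatocytes replicate 1. The 84 nuclear genes together took 1.31% to 1.35% of the counts in hepatoblasts, 1.29% to 1.43% in Diff. hepatocytes and 1.13% to 1.25% in mature hepatocytes. The 95% Wilson interval of each of these shares, which covers counting error only, was at most 0.00832 percentage points to either side. The 2 mitochondrial rRNAs, which are not subunit genes, took 0.306% to 0.446%, 0.470% to 0.573% and 0.418% to 0.534% in the same order.

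The ratio of mitochondrially encoded to nuclear subunit counts needs no scaling between libraries. Only 7 of the 13 mitochondrially encoded genes had enough counts to be tested, and mt-Nd4 and mt-Co1 share part of their sequence with other annotated genes. The mitochondrial shares above and the numerator here may therefore be too low. It was 1.72, 1.66, 1.47 and 1.75 in hepatoblasts, 1.55, 1.27, 1.33 and 1.43 in Diff. hepatocytes, and 2.79, 3.01, 2.47 and 2.97 in mature hepatocytes. All 4 mature libraries were above all 8 others, and hepatoblasts and Diff. hepatocytes overlapped.

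**Figure D1:**
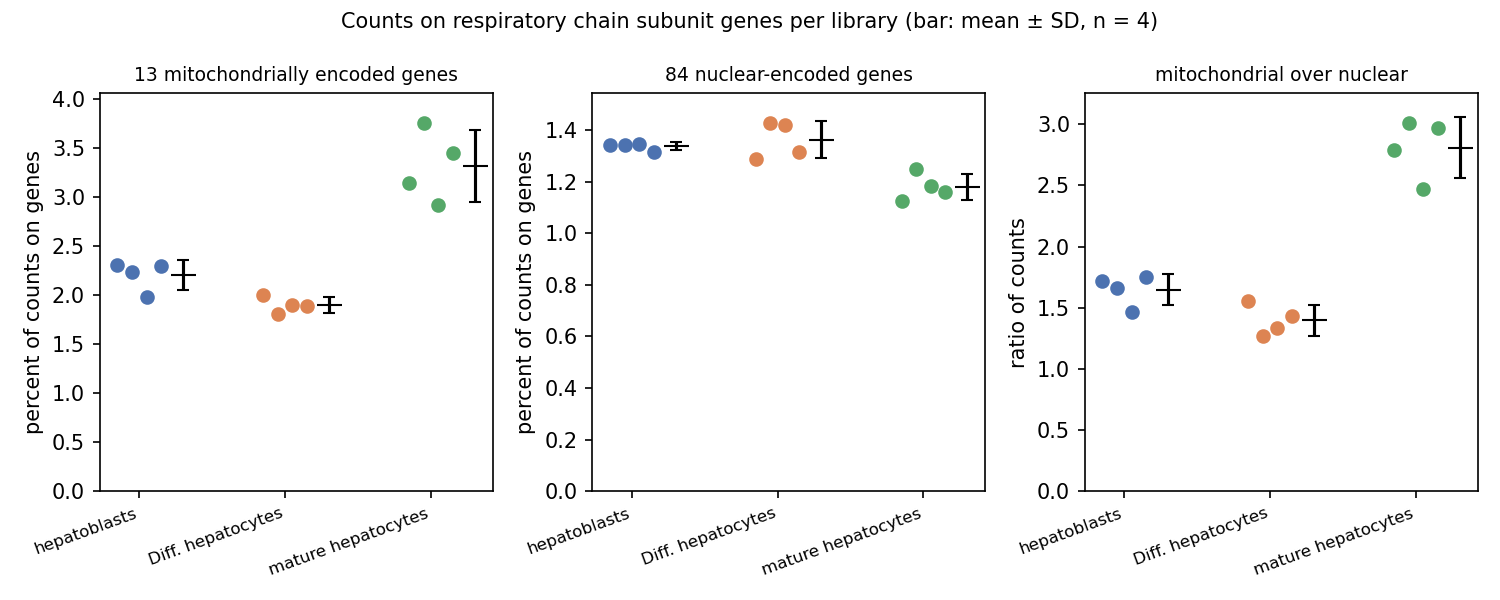
Percent of the counts on genes that fell on the 13 mitochondrially encoded genes (left) and the 84 nuclear genes (middle), and the ratio of both (right), with a point per library and the mean ± SD of the 4 libraries beside each group. The 4 mature hepatocyte libraries have mitochondrial shares of 2.92% to 3.76% and ratios of 2.47 to 3.01, above the other 8 libraries.

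Scaling decides the sign of many values here, so library totals are given beside many values below. Values printed under TMM alone may turn sign as well. TMM factors were 1.23 to 1.44 in hepatoblasts, 1.03 to 1.081 in Diff. and 0.677 to 0.778 in mature hepatocytes. Under TMM the median log2 fold change of all 17779 genes tested was -0.01 in Diff. hepatocytes against hepatoblasts, -0.15 in mature hepatocytes against hepatoblasts and 0.09 in Diff. against mature hepatocytes. With library totals in place of TMM these medians were -0.34, -1.0003 and 0.62. A gene counted as called when edgeR's quasi-likelihood test gave it a p under 0.01 after Benjamini-Hochberg adjustment and its log2 fold change was above 1 or below -1, and each p measures a difference against the spread between the replicates of a group. Over all genes 63.8%, 74.3% and 68.1% had an unadjusted p under 0.05 in the 3 comparisons in this order. Library totals gave calls for 1985 genes higher and 3621 lower, 2007 higher and 7920 lower, and 5500 higher and 1776 lower of the 17779, and every count with library totals below is to be read beside these. The 3 comparisons share groups and are not independent of each other. Of the 97 subunit genes, 87 had more than 10 counts in any library and were tested, 80 nuclear and 7 mitochondrially encoded.

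The first comparison asks which subunit genes differed after culture, in Diff. hepatocytes against hepatoblasts. In it 9 nuclear subunit genes rose and 1 fell, which is 12.5% of the 80 tested, and none of the 7 mitochondrially encoded genes passed. Over all genes 28.9% were called, 14.9% higher and 14.0% lower, and the difference between these shares was not tested. The 9 include Cox6a2, which passed the count filter through the Diff. libraries alone, where it is high, as do the 2 called higher against mature hepatocytes below. Their median log2 fold change was 0.30, with 71 of 80 above 0, against -0.01 and 49.3% above 0 over all genes. With library totals the nuclear median turned to -0.02, with 4 genes called higher and 1 lower. Relative to the median of all genes the nuclear median was 0.31 under either scaling. A change of scaling shifts all genes of a comparison nearly alike, so such agreement, here and below, is fixed beforehand and tests nothing. Of the mitochondrially encoded genes, 0 of 7 were called by edgeR and 0 by DESeq2, 1 had an unadjusted p under 0.05, and their median was 0.19 under TMM and -0.14 with library totals.

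The second comparison, of mature hepatocytes against hepatoblasts, spans embryo and adult. Here 16 nuclear subunit genes rose and 1 fell, together 21.3% of the 80 tested, and all 7 tested mitochondrially encoded genes rose. Over all genes 44.8% were called, 20.1% higher and 24.7% lower. The nuclear median was 0.68, with 75 of 80 genes above 0, and the mitochondrial median was 1.397. With library totals the nuclear median turned to -0.17, with 0 genes called higher by edgeR and 4 lower (2007 and 7920 of 17779 over all genes), against 16 called higher by edgeR and 15 by DESeq2 under their own scalings and 71 of 80 at an unadjusted p under 0.05, beside 74.3% of all genes. With library totals the mitochondrial median stayed above 0, at 0.55, with 1 gene called higher. Relative to the median of all genes the nuclear median was 0.83 and the mitochondrial median 1.55 under either scaling.

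The last comparison asks how far Diff. hepatocytes stood from mature ones. The nuclear genes had 2 called higher and 4 lower in Diff. hepatocytes, 7.50% of those tested, and of the 7 mitochondrially encoded genes 6 were called lower. Over all genes 35.8% were called, 20.2% higher and 15.6% lower. The nuclear median was -0.32 under TMM and 0.21 with library totals, where 6 nuclear genes were called higher and 0 lower by edgeR (under TMM 4 were lower by edgeR and 4 by DESeq2, and 52 of 80 had an unadjusted p under 0.05, beside 68.1% of all genes). The mitochondrial median was -1.20 under TMM and -0.67 with library totals, where 3 genes were called lower. Relative to the median of all genes the nuclear median was -0.42 under TMM and -0.41 with library totals, and the mitochondrial median -1.29 under both.

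**Figure D2:**
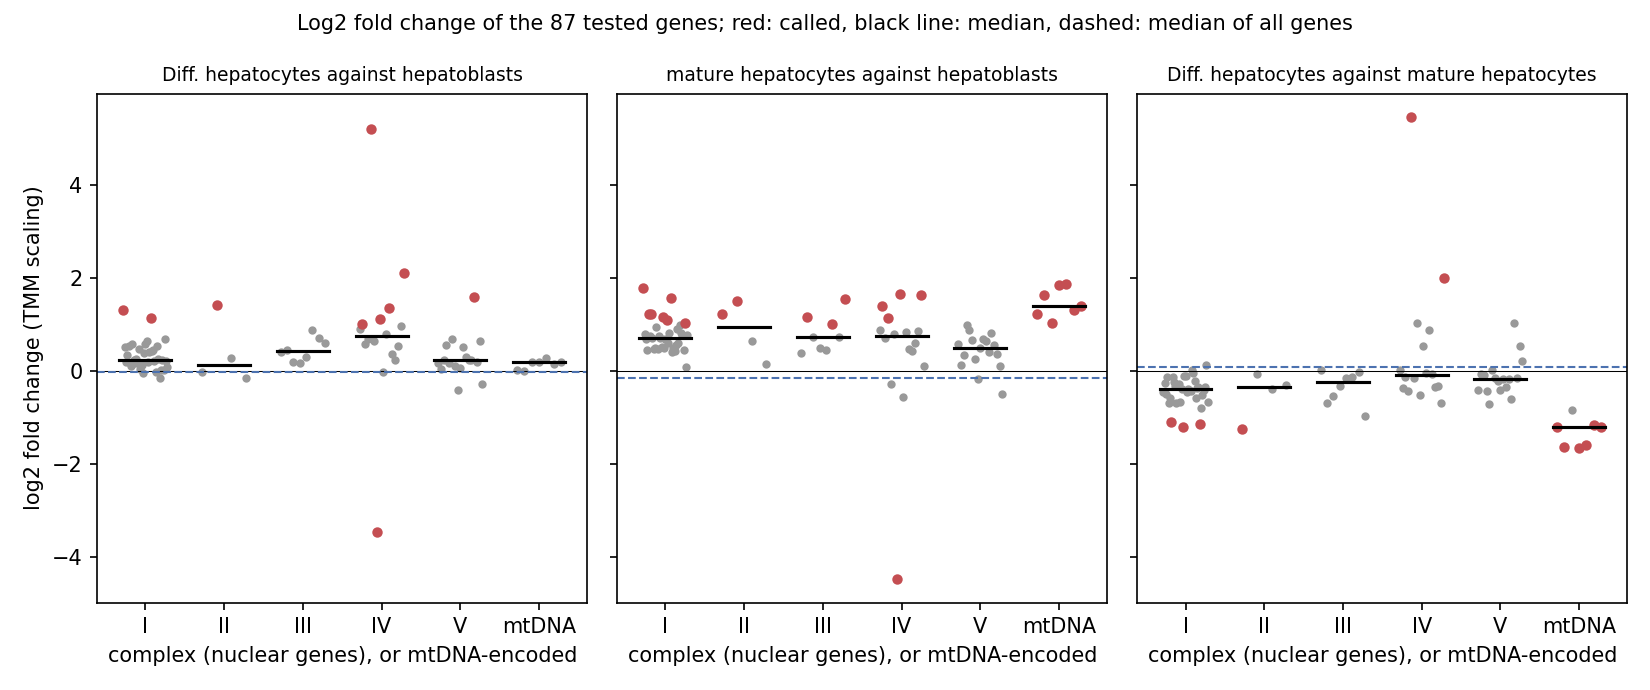
Log2 fold change under TMM scaling of the 87 tested genes in the 3 comparisons, with nuclear genes split by complex and mitochondrially encoded genes at the right of each panel; red points were called, black lines are medians and the dashed line is the median of all genes. The mitochondrially encoded medians are 0.19, 1.397 and -1.20, and with library totals, which are not drawn, they are -0.14, 0.55 and -0.67.

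Among the mitochondrially encoded subunits, mt-Nd1, mt-Nd2, mt-Nd4, mt-Nd5 and mt-Nd6 form part of the membrane arm of complex I, mt-Cytb is cytochrome b of complex III and mt-Co1 is the catalytic subunit of complex IV. mt-Nd2 (chrM:3914-4951, GRCm38) was at 2042, 2202, 1826 and 2353 CPM in hepatoblasts, 2546, 2151, 2597 and 2296 CPM in Diff. and 7729, 7430, 6620 and 8604 CPM in mature hepatocytes. The mature libraries lay far above the rest, and the other groups overlapped. Its log2 fold change in mature hepatocytes against hepatoblasts was 1.85 ± 0.129 (SE, adjusted p 2.43e-08), and Diff. hepatocytes differed from hepatoblasts by 0.19 ± 0.125 and from mature hepatocytes by -1.66 ± 0.128. mt-Cytb (chrM:14145-15288) was at 3435, 3304, 3381 and 3984 CPM in hepatoblasts, 3791, 3141, 3592 and 3545 CPM in Diff. and 10815, 12215, 9132 and 11482 CPM in mature hepatocytes. Its mature libraries again stood apart from the 8 others, with log2 fold changes of 1.63 against hepatoblasts and -1.63 in Diff. against mature hepatocytes. mt-Co1 stood at 4317 to 4935 CPM in hepatoblasts, 4302 to 4739 CPM in Diff. and 8792 to 11446 CPM in mature hepatocytes, and the last group differed from the first by 1.22 on the log2 scale.

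The 7 genes did not move by the same amount. In mature hepatocytes against hepatoblasts the log2 fold change was 1.04 for mt-Nd1, 1.22 for mt-Co1, 1.32 for mt-Nd5, 1.397 for mt-Nd6, 1.63 for mt-Cytb, 1.85 for mt-Nd2 and 1.87 for mt-Nd4. mt-Nd1, the gene with the smallest change, was at 2312, 2837, 2391 and 2736 CPM in hepatoblasts, 3059, 2746, 3140 and 2867 CPM in Diff. and 4849, 5376, 4871 and 6078 CPM in mature hepatocytes. The mature libraries were above all others, and Diff. hepatocytes and hepatoblasts overlapped. Its call rested on single libraries: the value was 0.99 without hepatoblasts replicate 1, 1.00 without replicate 3 and 0.96 without mature hepatocytes replicate 4, each below the threshold. It did not pass in Diff. against mature hepatocytes, at -0.84. As a share of all counts on the 13 genes, mt-Nd1 made up 15.3% in hepatoblasts, 16.3% in Diff. and 11.6% in mature hepatocytes, while mt-Nd2 made up 12.5%, 13.2% and 16.7%. mt-Nd4 made up 5.18% to 5.64%, 5.87% to 6.49% and 7.04% to 7.53% of them, and mt-Cytb 19.7% to 21.5%, 18.3% to 20.4% and 22.5% to 25.3%. So mature libraries held relatively fewer counts on mt-Nd1 and more on mt-Nd2, mt-Nd4 and mt-Cytb, with no overlap with the other groups in these 4 shares. The rest of the 13 genes, beyond these 7, had almost no counts. Other annotated genes share 61.5% of the 75-base sequences of mt-Nd4 and 39.8% of those of mt-Co1. The shares therefore describe the counts and not the make-up of mitochondrial RNA. The difference between the fold changes was not tested, and neither was the part of poly(A) selection or transcript length in it. With library totals the call held for mt-Nd4, at 1.01, and was lost for the others, with mt-Nd2 at 0.99 and mt-Nd1 at 0.19. In Diff. against mature hepatocytes the calls of mt-Nd5, mt-Nd6 and mt-Co1 were lost with library totals, at -0.64, -0.67 and -0.67, and with the fold threshold inside the test.

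mt-Nd6 is the only one of the 13 genes on the other strand of the mitochondrial genome (chrM:13552-14070, minus strand). It was at 613, 662, 652 and 734 CPM in hepatoblasts, 804, 706, 787 and 748 CPM in Diff. and 1616, 2070, 1326 and 1994 CPM in mature hepatocytes, so that the mature libraries were again the highest. The strand setting behind the deposited counts is not given, so reads from RNA antisense to mt-Nd6 may be among these.

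The other 6 mitochondrially encoded genes had almost no counts, and their values say nothing about expression. mt-Nd4l and mt-Atp8 had 0 counts in all 12 libraries, which allows up to 3 counts for each. mt-Co2 and mt-Co3 had 1 count each over all libraries, mt-Atp6 had 2 and mt-Nd3 had 45, between 1 and 9 per library. For 5 of the 6, nearly every 75-base sequence of the transcript also occurs in another annotated gene: 97.8% for mt-Nd3, 98.7% for mt-Nd4l, 99.5% for mt-Co2, 99.9% for mt-Co3 and 99.5% for mt-Atp6. A read of 75 bases from them therefore has more than 1 place of origin. mt-Atp8 shared none of its 75-base sequences with other annotated genes, has 21.1% of its exon bases in common with mt-Atp6 and was at 0 as well. Only annotated transcripts were searched, so a share of 0 does not show that a read has only 1 place of origin. Whether an unannotated copy of mt-Atp8 lies between the chromosome 1 copies of mt-Co2 and mt-Atp6 described below was not tested. Of the 7 tested genes, mt-Nd1, mt-Nd6 and mt-Cytb shared none, mt-Nd5 shared 1.66%, mt-Nd2 5.70%, mt-Co1 39.8% and mt-Nd4 61.5%. Counts on the 5 tested genes with under 10% shared made up 1.34% to 1.56% of the library in hepatoblasts, 1.20% to 1.42% in Diff. hepatocytes and 2.05% to 2.61% in mature hepatocytes. The mature libraries were the highest for these genes too.

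For mt-Atp6, mt-Co2, mt-Co3, mt-Nd3, mt-Nd4 and mt-Nd4l the shared sequence was traced to copies of mitochondrial DNA in the nuclear genome. These copies are annotated as unprocessed pseudogenes on chromosome 1. Those of mt-Nd2, mt-Nd5 and mt-Co1 were not traced. mt-Co2 matches Gm28661 (chr1:24614885-24615565, minus strand), and mt-Atp6 matches Gm10925 (chr1:24613974-24614651, minus strand). The 6 pseudogenes that match mt-Atp6, mt-Co2, mt-Co3, mt-Nd3, mt-Nd4 and mt-Nd4l had 0 to 5 counts each per library themselves. The first 75 bases of mt-Co2 (chrM:7013-7087, plus strand, GRCm38, Ensembl transcripts) are shown because a read of this sequence cannot be placed: the same 75 bases lie at chr1:24615491-24615565 on the minus strand. They are in lower case throughout, since every base is shared.
mt-Co2 and Gm28661: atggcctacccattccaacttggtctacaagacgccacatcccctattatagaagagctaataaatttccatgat

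**Figure D3:**
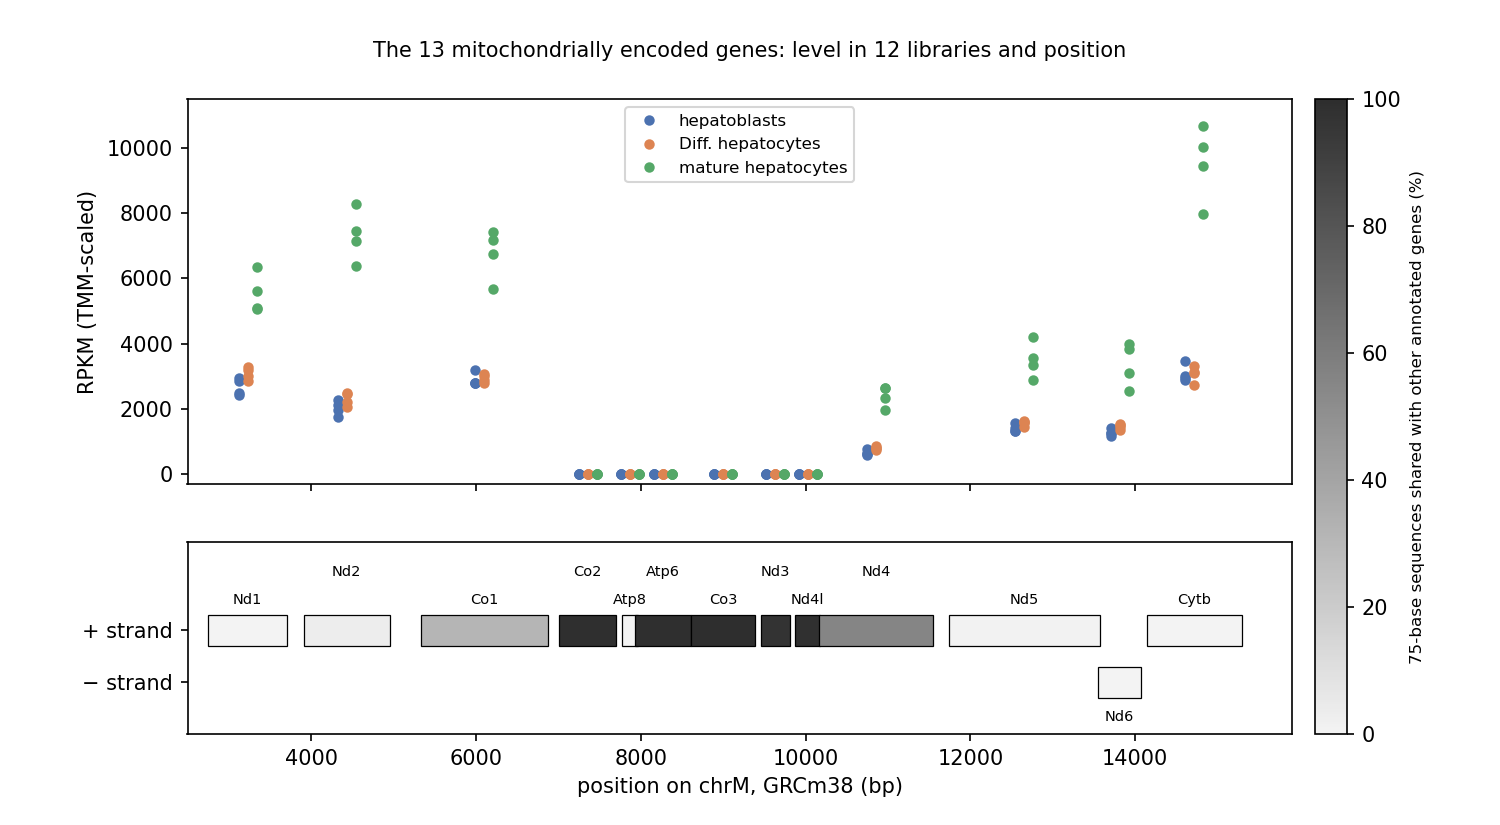
Level in RPKM (TMM-scaled CPM per kilobase of exon, upper panel) of the 13 mitochondrially encoded genes in each of the 12 libraries, at their positions on chrM of GRCm38, with the genes by strand below and shaded by the percent of their 75-base sequences that other annotated genes share. The 6 genes with 45 counts or fewer over all libraries lie side by side, and 5 of them are shaded at 97.8% to 99.9%, with mt-Atp8 at 0.

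Per length, the mitochondrially encoded genes were far above the nuclear ones. The median level of the 7 tested mitochondrial genes was 2029 RPKM in hepatoblasts, 2310 RPKM in Diff. and 5531 RPKM in mature hepatocytes. The median of the 80 tested nuclear genes was 51.3, 74.9 and 98.3 RPKM. In each group the lowest of the 7 was mt-Nd4, at 658, 795 and 2400 RPKM. Other annotated genes share 61.5% of its 75-base sequences, so its level and rank may be too low. Even so it was above the highest nuclear gene. That gene was Atp5b, the catalytic subunit of ATP synthase, at 382 RPKM in hepatoblasts, then Cox4i1 at 417 RPKM in Diff. hepatocytes and Atp5a1, the other large subunit of the ATP synthase head, at 452 RPKM in mature hepatocytes. mt-Cytb reached 9538 RPKM in mature hepatocytes.

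Complex I had 35 nuclear genes, all tested. In Diff. hepatocytes against hepatoblasts 2 rose and 0 fell by edgeR (0 fell by DESeq2, and 22 of 35 had an unadjusted p under 0.05, beside 63.8% of all genes), with a median log2 fold change of 0.24 that turned to -0.08 with library totals. In mature hepatocytes against hepatoblasts 7 rose, with a median of 0.72 that turned to -0.13 with library totals, and in Diff. against mature hepatocytes 3 were lower, with a median of -0.40 that turned to 0.13. These are 5.71%, 20% and 8.57% of the 35, beside 28.9%, 44.8% and 35.8% of all genes. The genes called in the first comparison were Ndufa1 and Ndufb9, accessory subunits of the membrane arm. Ndufa1, on the X chromosome, was at 26.5, 29.1, 27.9 and 30.4 CPM in hepatoblasts, 61.7, 77.2, 79.5 and 65.2 CPM in Diff. and 102, 101, 88.9 and 99.1 CPM in mature hepatocytes. The 3 groups did not overlap, with Diff. hepatocytes between the others. Its log2 fold change was 1.32 ± 0.0953 (SE, adjusted p 9.66e-08) in Diff. hepatocytes and 1.78 ± 0.0965 (SE, adjusted p 2.17e-09) in mature hepatocytes, each against hepatoblasts, and with library totals it was 0.99 and 0.93. Ndufb9 was at 37.5 to 42.5 CPM in hepatoblasts, 76.0 to 96.0 CPM in Diff. and 110 to 126 CPM in mature hepatocytes. It followed the same order, with 1.13 and 1.57, and with library totals 0.81 and 0.72. Ndufa3, an accessory subunit of the membrane arm, was at 50.1, 48.5, 53.8 and 53.6 CPM in hepatoblasts, 52.6, 58.5, 58.7 and 53.1 CPM in Diff. and 121, 112, 117 and 128 CPM in mature hepatocytes. Here the mature libraries stood alone, and Diff. hepatocytes overlapped with hepatoblasts. Between Diff. and mature hepatocytes it differed by -1.10, and Ndufb3 and Ndufs5, further accessory subunits, were at -1.20 and -1.14. With library totals these values were -0.57, -0.68 and -0.61, and with the fold threshold inside the test none of the 3 was called. Ndufs5 was not called in mature hepatocytes against hepatoblasts, at 0.99, and passed at 1.03 without hepatoblasts replicate 3. Ndufa3 and Ndufb3 were called there at 1.22 and 1.15, or 0.36 and 0.31 with library totals.

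Complex II is wholly nuclear, and its 4 genes differed from each other. Sdha, the flavoprotein that oxidises succinate (ENSMUSG00000021577, chr13:74322254-74350280), was at 323, 370, 375 and 378 CPM in hepatoblasts, 337, 375, 361 and 357 CPM in Diff. and 834, 791, 833 and 935 CPM in mature hepatocytes. Sdhb, its iron-sulfur partner (ENSMUSG00000009863, chr4:140961203-140979193), was at 78.0, 82.7, 88.3 and 87.5 CPM in hepatoblasts, 202, 234, 242 and 228 CPM in Diff. and 240, 238, 215 and 257 CPM in mature hepatocytes. Sdha was thus high in mature libraries alone, while Sdhb was high in both Diff. and mature hepatocytes, which overlapped. The log2 fold change of Sdha was -0.02 ± 0.0885 (SE) in Diff. hepatocytes against hepatoblasts and 1.23 ± 0.0897 (SE, adjusted p 3.72e-08) in mature hepatocytes against them. That of Sdhb was 1.43 ± 0.0877 (SE, adjusted p 2.3e-08) and 1.498 ± 0.0879 (SE, adjusted p 4.57e-09). With library totals Sdha in mature hepatocytes was 0.38 and Sdhb 0.65, both below the threshold, and Sdhb in Diff. hepatocytes was 1.11 and still called. Sdhc and Sdhd, the membrane anchors, were not called in any comparison, with values of 0.27 and -0.15 in Diff. hepatocytes and 0.65 and 0.16 in mature hepatocytes against hepatoblasts. With library totals these were -0.05 and -0.47 in Diff. hepatocytes and -0.20 and -0.69 in mature hepatocytes. Per length the order changed as well: Sdhb was the lowest of the 4 in hepatoblasts at 37.6 RPKM, Sdhc the lowest in Diff. and mature hepatocytes at 60.7 and 79.2 RPKM, and Sdhd the highest in each group at 192, 173 and 214 RPKM.

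Complex III had 8 nuclear genes. In Diff. hepatocytes against hepatoblasts 0 were called by edgeR and 0 by DESeq2, with 7 of 8 at an unadjusted p under 0.05 and a median of 0.43, or 0.11 with library totals, beside 28.9% of all genes called. In mature hepatocytes against hepatoblasts 3 rose (2 by DESeq2), 37.5% beside 44.8% of all genes, with a median of 0.73 that turned to -0.12 with library totals. In Diff. against mature hepatocytes 0 were called by edgeR and 0 by DESeq2, with 4 of 8 at an unadjusted p under 0.05 and a median of -0.24 that turned to 0.29, beside 35.8% of all genes called. Uqcrq, a small subunit next to cytochrome b, was at 117, 137, 152 and 146 CPM in hepatoblasts, 189, 213, 229 and 204 CPM in Diff. and 419, 361, 388 and 458 CPM in mature hepatocytes. The 3 groups did not overlap. Its log2 fold change in mature hepatocytes against hepatoblasts was 1.56 ± 0.109 (SE, adjusted p 2.45e-08), and 0.71 with library totals. In Diff. against mature hepatocytes it was -0.96 and not called, yet passed at -1.01 without Diff. hepatocytes replicate 3 and at -1.02 without mature hepatocytes replicate 2. Uqcrc1, a core protein of the complex, had the lowest level per length of the 8 in each group, at 66.1, 74.5 and 93.2 RPKM.

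Complex IV holds the paralogues known from other tissues. Of its 20 nuclear genes 16 were tested, and in Diff. hepatocytes against hepatoblasts 5 rose and 1 fell, with a median log2 fold change of 0.75. This is 37.5% of those tested beside 28.9% of all genes and counts Cox6a2, which passed the filter through the Diff. libraries alone, so no weight is put on the difference. With library totals 3 rose and 1 fell, 25.0% of those tested, where 5606 of all 17779 genes were called, with a median of 0.42. In mature hepatocytes against hepatoblasts 4 rose and 1 fell, 31.2% beside 44.8% of all genes, with a median of 0.74 that turned to -0.11 with library totals, where 0 rose by edgeR and 2 fell. In Diff. against mature hepatocytes 2 were higher and none lower by edgeR and by DESeq2, 12.5% beside 35.8% of all genes, and 1 of the 2 was Cox6a2. The median was -0.09 and turned to 0.44 with library totals, where 4 were higher, and 9 of 16 had an unadjusted p under 0.05 under TMM, beside 68.1% of all genes. The counts on nuclear complex IV genes made up 0.185% to 0.201% of the library in hepatoblasts, 0.239% to 0.268% in Diff. hepatocytes and 0.199% to 0.213% in mature hepatocytes. Diff. hepatocytes were above both other groups in all 4 libraries on this scale of library totals. Complex V had another order on it, with 0.576% to 0.603% in hepatoblasts, 0.521% to 0.569% in Diff. and 0.406% to 0.470% in mature hepatocytes, and no overlap between the groups. No test of these sums was made.

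Cox4i1, a subunit made in most tissues, Cox6c and Ndufa4 were among the complex IV genes with higher values outside hepatoblasts under TMM. Cox6c, a small membrane subunit, was at 62.4, 58.3, 55.8 and 62.8 CPM in hepatoblasts, 115, 143, 139 and 124 CPM in Diff. and 183, 198, 173 and 198 CPM in mature hepatocytes, with no overlap between the groups. It rose by 1.12 in Diff. hepatocytes and 1.65 in mature hepatocytes on the log2 scale against hepatoblasts, and with library totals the value was 0.80 in both. Ndufa4 was at 108 to 130 CPM, 213 to 251 CPM and 348 to 388 CPM in hepatoblasts, Diff. hepatocytes and mature hepatocytes, and rose by 1.64 in mature hepatocytes, or 0.79 with library totals. Its 0.96 in Diff. hepatocytes did not pass. Cox4i1 was at 332 to 356 CPM, 595 to 714 CPM and 590 to 688 CPM and did not pass either, at 0.90 in Diff. and 0.87 in mature hepatocytes. With library totals Cox4i1 was at 0.58 and 0.02.

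The paralogues of complex IV were read as the share each took of the summed RPKM of its set. The common forms held nearly all of it: Cox4i1 held at least 99.8% of Cox4i1 and Cox4i2 in every library, Cox8a at least 99.9% of the Cox8 genes, and Cox7b all of its pair. The lung form Cox4i2, the muscle form Cox8b and the testis forms Cox7b2 and Cox8c were too low to be tested, with 48, 4, 0 and 0 counts over the 12 libraries. Cox6a2, the heart and skeletal muscle form of Cox6a (ENSMUSG00000030785, chr7:128205435-128206387), was at 0.129, 0.0299, 0.162 and 0.0663 CPM in hepatoblasts, 2.12, 3.83, 3.95 and 5.03 CPM in Diff. and 0, 0.0642, 0.233 and 0 CPM in mature hepatocytes. All 4 Diff. libraries were above the 8 others. The groups had 12, 329 and 5 counts in all, and the gene passed the filter of more than 10 counts through the Diff. libraries alone, the group where it is high, so its p is not given. The log2 fold change of 5.20 in Diff. hepatocytes against hepatoblasts rests on few counts in hepatoblasts. Against mature hepatocytes it was 5.48, and 7.11 without mature hepatocytes replicate 3, which held 4 of the 5 counts there. Even so Cox6a2 made up 1.15% to 2.35% of the Cox6a set in Diff. hepatocytes, and Cox6a1, the liver form, made up the rest. Cox6a1 was at 120 to 136 CPM in hepatoblasts, 188 to 220 CPM in Diff. and 261 to 314 CPM in mature hepatocytes, with a called change of 1.14 in mature hepatocytes against hepatoblasts that was 0.28 with library totals. The 9 markers of striated muscle, of which Tnnt2 and Acta1 were tested, with Tnnt2 the most abundant and no gene at 0 in all libraries, summed to 90.4, 36.0, 69.7 and 35.6 CPM in Diff. hepatocytes and to 0.549 to 1.24 CPM elsewhere. Diff. hepatocytes replicate 1 had the highest muscle sum and the lowest Cox6a2. The part of muscle or mesenchymal cells in Cox6a2 was not tested.

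Cox6b2, the testis form of Cox6b (ENSMUSG00000051811, chr7:4751792-4753094), went the other way. It was at 15.5, 5.52, 4.14 and 3.68 CPM in hepatoblasts, 0.692, 0.775, 0.489 and 0.641 CPM in Diff. and 0.137, 0.513, 0.292 and 0.310 CPM in mature hepatocytes. Hepatoblasts were above all other libraries, replicate 1 most of all. Its log2 fold change was -3.46 ± 0.471 (SE, adjusted p 3.12e-05) in Diff. hepatocytes and -4.49 ± 0.532 (SE, adjusted p 4.69e-06) in mature hepatocytes against hepatoblasts, and without hepatoblasts replicate 1 it was -2.76 and -3.80. Cox6b2 held 6.61%, 2.55%, 1.58% and 1.58% of the Cox6b set in hepatoblasts and at most 0.208% elsewhere, beside the common form Cox6b1, which was not called. The 8 germ cell markers, of which Ddx4 was the most abundant and the only tested one and 2 were at 0 in all libraries, summed to at most 0.683 CPM in any library. The erythroid sum of 3067 CPM in hepatoblasts replicate 1, against 377 to 622 CPM in the other hepatoblast libraries, is in the library where Cox6b2 was highest. In the same library the macrophage sum was 378 CPM against 89.7 to 109 CPM, and the endothelial sum 145 CPM against 43.4 to 67.7 CPM. The part of these cells was not tested.

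Ndufa4l2, a paralogue of Ndufa4 known to be induced under low oxygen, was at 1.13, 0.836, 1.04 and 0.928 CPM in hepatoblasts, 6.27, 5.90, 2.40 and 2.32 CPM in Diff. and 1.03, 0.898, 1.17 and 1.12 CPM in mature hepatocytes. All Diff. libraries were above the others, in a higher and a lower pair. Its log2 fold change was 2.101 ± 0.3299 (SE, adjusted p 0.000108) against hepatoblasts and 1.998 ± 0.343 (SE, adjusted p 0.000183) against mature hepatocytes, and it held 1.19% to 3.57% of the RPKM of its pair in Diff. hepatocytes, 0.877% to 1.30% in hepatoblasts and 0.304% to 0.421% in mature hepatocytes. The share in Diff. hepatocytes overlapped with that in hepatoblasts. Cox7a2l was at 35.1, 36.7, 37.0 and 35.7 CPM in hepatoblasts, 79.5, 95.9, 92.6 and 101 CPM in Diff. and 43.1, 58.3, 46.5 and 51.3 CPM in mature hepatocytes. Diff. hepatocytes were the highest group without overlap. It rose by 1.35 ± 0.102 (SE, adjusted p 1.34e-07) on the log2 scale against hepatoblasts, while 0.89 against mature hepatocytes was not called under TMM and 1.41 with library totals was. Cox7a1, the muscle form of Cox7a, gave no call, with 2.90 to 4.99 CPM in hepatoblasts, 2.93 to 7.32 CPM in Diff. and 1.80 to 3.35 CPM in mature hepatocytes. It was called with library totals, at -1.41 in mature hepatocytes against hepatoblasts and 1.075 in Diff. against mature hepatocytes. Of the summed RPKM of Cox7a1, Cox7a2 and Cox7a2l, the liver form Cox7a2 held 70.4% to 83.6% over the 12 libraries, Cox7a2l 13.9% to 26.7% and Cox7a1 1.47% to 6.80%.

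**Figure D4:**
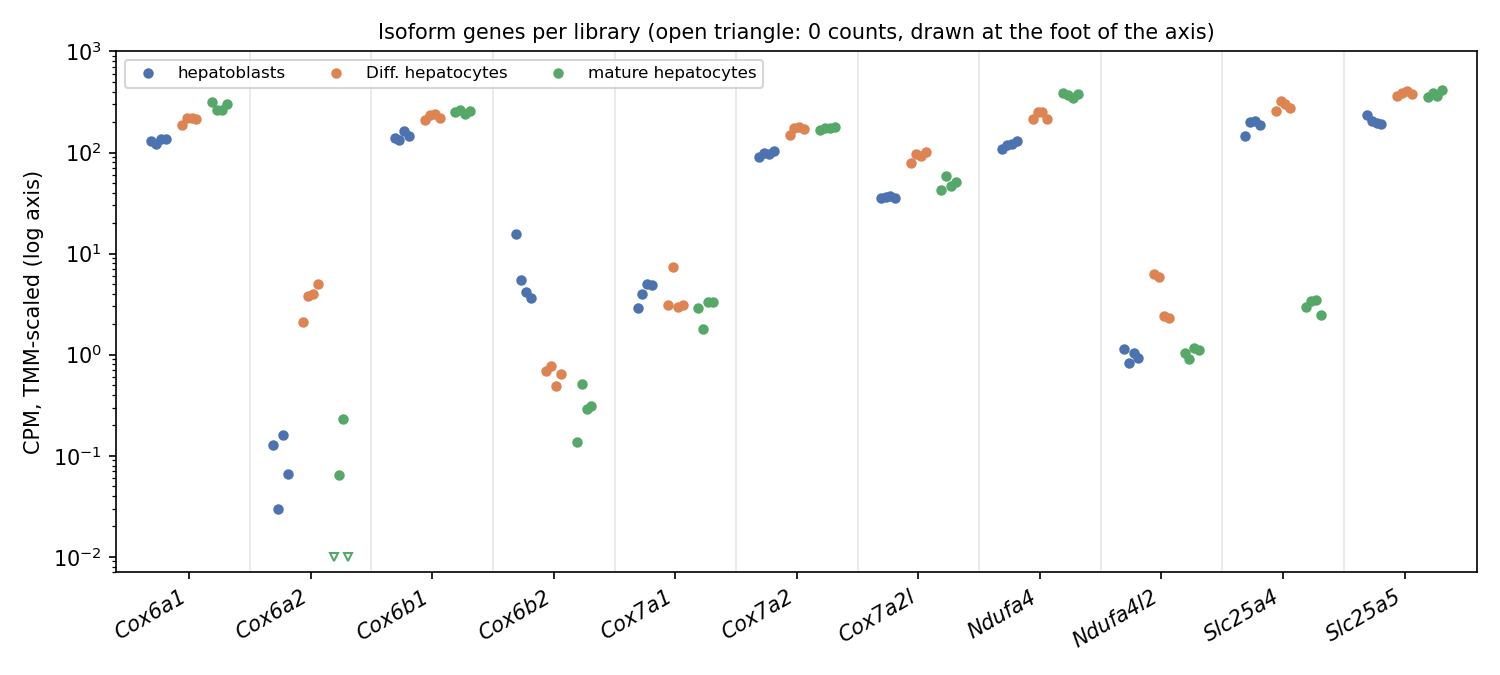
CPM on a log axis of complex IV paralogues and of the adenine nucleotide carriers Slc25a4 and Slc25a5, with a point per library and an open triangle at the foot for 0 counts. Cox6a2 lies at 2.12 to 5.03 CPM in Diff. hepatocytes, Cox6b2 at 3.68 to 15.5 CPM in hepatoblasts and Slc25a4 at 2.48 to 3.44 CPM in mature hepatocytes.

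Complex V had 17 nuclear genes. In Diff. hepatocytes against hepatoblasts 1 rose, 5.88% beside 28.9% of all genes, with a median of 0.23 that turned to -0.09 with library totals. In mature hepatocytes against hepatoblasts 0 were called by edgeR and 0 by DESeq2, with 13 of 17 at an unadjusted p under 0.05 and a median of 0.49 that turned to -0.36, beside 44.8% of all genes called. With library totals 2 were called lower here, and 2 were called higher in Diff. against mature hepatocytes. In Diff. against mature hepatocytes 0 were called by edgeR and 1 by DESeq2, with 8 of 17 at an unadjusted p under 0.05 and a median of -0.16 that turned to 0.36, beside 35.8% of all genes called. The gene that rose was Atp5l, the g subunit of the membrane part, at 2.096, 1.88, 1.17 and 1.96 CPM in hepatoblasts, 5.02, 5.81, 5.29 and 5.42 CPM in Diff. and 2.47, 5.26, 1.46 and 1.37 CPM in mature hepatocytes. Mature hepatocytes replicate 2 fell among the Diff. libraries, apart from its group. The log2 fold change was 1.60 ± 0.359 (SE, adjusted p 0.00181), 1.27 and no longer called with library totals. In Diff. against mature hepatocytes it was 1.03 and not called by edgeR, 1.04 and called by DESeq2, and 1.61 and called without mature hepatocytes replicate 2. With the replicate number as a block the value for Atp5l was 1.16. Of the 75-base sequences of its coding transcript, 76.0% occur in other annotated genes, so its counts stand for part of the transcript at most. The 3 genes of the c ring, Atp5g1, Atp5g2 and Atp5g3, encode the same mature protein with different import signals and were not called under TMM. Atp5g3 held 76.8% to 86.0% of their summed RPKM over the 12 libraries. Of their 75-base sequences, other annotated genes share 35.8% for Atp5g2, 7.29% for Atp5g1 and none for Atp5g3. In single coding transcripts this reached 100% for Atp5g2 and 59.6% for Atp5g1, so the share of Atp5g3 may be too high. With library totals Atp5g2 was called in mature hepatocytes against hepatoblasts at -1.03. Atp5b was at 1452 to 1761 CPM in hepatoblasts, 1571 to 1762 CPM in Diff. and 1683 to 1889 CPM in mature hepatocytes, and differed from hepatoblasts by 0.05 in Diff. and 0.12 in mature hepatocytes. With library totals these 2 values turned to -0.27 and -0.73.

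Promoter sequence was available from RefSeq (GRCm38.p6, 250 bases before to 50 after the start) for 68 of the 84 nuclear genes, 2 of them under other names (Atp5f1 as Atp5pb and Atp5s as Dmac2l). It was searched on both strands for the letters of factors known to act on respiratory genes. The NRF1 core CGCATGCG, which reads the same on both strands, was in 9 of the 68 promoters (13.2%), beside 2.07% of 27025 promoters of all genes and 10.1% of those of mitochondrial ribosomal proteins. The YY1 letters AAGATGGC, or GCCATCTT, were in 10 (14.7%), beside 3.19% of all and 17.4% of the ribosomal ones. The ETS letters CCGGAAGT, or ACTTCCGG, bound by GABPA, were in 5 (7.35%), beside 4.31% and 17.4%, and the ERR letters AAGGTCA, or TGACCTT, were in 8 (11.8%), beside 5.38% and 5.80%. These are matches of letters, not sites of binding, and no motif contains another. Below are stretches around the NRF1 core in 5 promoters and around the ERR letters in that of Atp5g3, shown as examples of these matches. Capitals mark the match.
Atp5g2: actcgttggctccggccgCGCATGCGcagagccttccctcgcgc
Atp5j: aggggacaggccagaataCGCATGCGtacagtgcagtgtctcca
Atp5k: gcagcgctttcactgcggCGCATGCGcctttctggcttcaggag
Cox6a1: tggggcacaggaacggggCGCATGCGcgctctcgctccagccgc
Ndufa11: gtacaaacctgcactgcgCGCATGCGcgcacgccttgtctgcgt
Atp5g3: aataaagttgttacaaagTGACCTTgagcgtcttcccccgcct

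They lie at chr15:102671063-102671106 for Atp5g2, chr16:84835098-84835141 for Atp5j, chr5:108434423-108434466 for Atp5k and chr5:115349094-115349137 for Cox6a1, all on the minus strand. The stretch of Ndufa11 lies at chr17:56717685-56717728 on the plus strand and that of Atp5g3 at chr2:73911354-73911396 on the minus strand.

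Of the 15 regulators of respiratory genes, 3 rose and 0 fell by edgeR in Diff. hepatocytes against hepatoblasts (0 fell by DESeq2, and 12 of 15 had an unadjusted p under 0.05), 6 rose and 4 fell in mature hepatocytes against hepatoblasts, and 2 were higher and 1 lower in Diff. against mature hepatocytes. These are 20%, 66.7% and 20% of the 15, beside 28.9%, 44.8% and 35.8% of all genes. Their median log2 fold changes were -0.16, 0.13 and 0.12, and with library totals -0.48, -0.74 and 0.64, with 3 higher and 2 lower, 2 higher and 7 lower, and 4 higher and 1 lower. Ppargc1b, a coactivator of mitochondrial genes, was at 2.84, 1.58, 1.68 and 1.79 CPM in hepatoblasts, 31.9, 34.4, 34.3 and 35.4 CPM in Diff. and 21.1, 14.1, 13.6 and 26.9 CPM in mature hepatocytes. The 3 groups did not overlap, with Diff. hepatocytes the highest. Its value in Diff. against mature hepatocytes was 0.84 and not called, yet 1.06 and called without mature hepatocytes replicate 4 and 1.39 and called with library totals. Its log2 fold change was 4.10 ± 0.245 (SE, adjusted p 1.79e-08) in Diff. and 3.26 ± 0.241 (SE, adjusted p 4.24e-08) in mature hepatocytes against hepatoblasts. The nuclear receptors Esrra and Ppara rose too, Esrra by 1.403 and 1.28 and Ppara by 2.01 and 2.82 in the same order, and with library totals Esrra in mature hepatocytes was 0.44 and not called. Ppargc1a, the related coactivator, was at 14.3, 23.9, 23.5 and 27.3 CPM in hepatoblasts, 26.5, 42.6, 35.1 and 36.4 CPM in Diff. and 7.47, 9.75, 13.9 and 12.5 CPM in mature hepatocytes. Mature hepatocytes were the lowest group without overlap, and the others overlapped. It was called at 1.68 in Diff. against mature hepatocytes and at -1.02 in mature hepatocytes against hepatoblasts, a call lost without any 1 of 4 libraries, with values of -0.99 and -0.92 without hepatoblasts replicates 2 and 4 and -0.89 and -0.98 without mature hepatocytes replicates 1 and 2. Nrf1, a factor at promoters of nuclear subunit genes, was lower in mature hepatocytes than in hepatoblasts at -1.16, and -0.90 in Diff. hepatocytes was not called under TMM while -1.24 with library totals was. Gabpa, a subunit of the factor at ETS letters, was not called, at -0.33 in Diff. and 0.13 in mature hepatocytes, or -0.65 and -0.74 with library totals. Esrrg, an estrogen-related receptor, was at 0.0861 to 0.5505 CPM in hepatoblasts and Diff. hepatocytes and 0.934 to 3.10 CPM in mature hepatocytes, with 2.15 in mature hepatocytes against hepatoblasts and -3.08 in Diff. against mature hepatocytes. The first value was 1.29 and not called with library totals.

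Further genes copy, transcribe and process mitochondrial nucleic acids. Of 25 tested genes for mitochondrial RNA, 4 rose in Diff. hepatocytes and 5 in mature hepatocytes against hepatoblasts, none fell by edgeR or DESeq2, and 1 was lower in Diff. against mature hepatocytes. These are 16.0%, 20% and 4.00%, beside 28.9%, 44.8% and 35.8% of all genes, with 19, 16 and 15 of 25 at an unadjusted p under 0.05. With library totals 1 rose in Diff. hepatocytes and 9 fell in mature hepatocytes against hepatoblasts, and 5 were higher in Diff. against mature hepatocytes. Their medians were 0.32, 0.09 and 0.17, and with library totals -0.01, -0.76 and 0.70. Tfb2m, a factor that opens the mitochondrial promoter, was at 4.51 to 5.67 CPM in hepatoblasts, 10.98 to 12.5 CPM in Diff. and 14.3 to 17.1 CPM in mature hepatocytes, and rose by 1.22 and 1.56. Fastkd1, an RNA-binding protein of the mitochondrion, rose by 1.76 and 1.41, and Mterf4, a factor of mitochondrial ribosome assembly, by 1.23 and 1.30. With library totals the changes of Tfb2m, Fastkd1 and Mterf4 in mature hepatocytes were 0.70, 0.56 and 0.45, and those of Tfb2m and Mterf4 in Diff. hepatocytes 0.89 and 0.91, all below the threshold. Rexo2, a nuclease that clears short mitochondrial RNA, rose by 1.62 in mature hepatocytes and was lower at -1.12 in Diff. against mature hepatocytes, or 0.75 and -0.59 with library totals. Tfam, which packs mitochondrial DNA, the mitochondrial RNA polymerase Polrmt and the RNA-stabilising Lrpprc were not called, with values of -0.22, 0.80 and -0.14 in mature hepatocytes against hepatoblasts. With library totals Tfam was called there at -1.07, while Polrmt and Lrpprc were at -0.05 and -0.98, not called. In Diff. against mature hepatocytes Lrpprc was called with library totals, at 1.02. Slirp, the partner of Lrpprc, was too low to be tested.

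Of 13 genes that copy and keep mitochondrial DNA, 0 rose by edgeR in Diff. hepatocytes against hepatoblasts and 2 fell (0 and 2 by DESeq2, 7 at an unadjusted p under 0.05), 1 rose and 2 fell in mature hepatocytes, and 2 were lower in Diff. against mature hepatocytes. These are 15.4%, 23.1% and 15.4%, beside 28.9%, 44.8% and 35.8% of all genes. Medians were -0.02, 0.04 and 0.02, and with library totals -0.35, -0.81 and 0.56, with 3 lower, 4 lower and 2 higher. Mgme1, a nuclease of mitochondrial DNA replication, was at 14.9, 18.8, 17.6 and 17.6 CPM in hepatoblasts, 3.85, 4.43, 5.37 and 4.78 CPM in Diff. and 10.8, 9.37, 9.69 and 8.94 CPM in mature hepatocytes. Diff. hepatocytes were the lowest and the groups did not overlap, with log2 fold changes of -1.90 against hepatoblasts and -1.07 against mature hepatocytes, the latter -0.99 and not called without Diff. hepatocytes replicate 1, and -0.55 with library totals. Tk2, the thymidine kinase of mitochondria, rose by 1.62 in mature hepatocytes against hepatoblasts, or 0.76 with library totals. Exog and Primpol of this list were lower there, at -1.77 and -1.35, or -2.61 and -2.19 with library totals. The polymerase Polg and the helicase Twnk were not called under TMM, and Twnk was called at 1.05 with library totals in Diff. against mature hepatocytes.

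The mitochondrial ribosomal proteins, a large nuclear group made for the translation of the 13 genes, were called in 2.60%, 3.90% and 6.49% of cases, beside 28.9%, 44.8% and 35.8% of all genes. Of 77 tested, 0 rose and 2 fell by edgeR in Diff. hepatocytes against hepatoblasts (0 and 2 by DESeq2, 52 at an unadjusted p under 0.05), 2 rose and 1 fell in mature hepatocytes, and 2 were higher and 3 lower in Diff. against mature hepatocytes. Medians were -0.07, 0.07 and -0.12, turning to -0.39, -0.78 and 0.40 with library totals, and relative to the median of all genes they were -0.06, 0.22 and -0.21 under TMM. With library totals 7 fell in Diff. hepatocytes and 28 in mature hepatocytes against hepatoblasts, beside 3621 and 7920 of 17779 genes lower, and 7 were higher and 1 lower in Diff. against mature hepatocytes. The nuclear subunit genes had 0.31, 0.83 and -0.42 on that measure. Mrpl49 fell by 1.67 in Diff. hepatocytes against hepatoblasts and Mrps25 fell by 1.09, while Mrpl14 rose by 1.16 and Mrps24 by 1.06 in mature hepatocytes, and all 4 are structural proteins of the mitochondrial ribosome. With library totals Mrpl14 and Mrps24 were at 0.31 and 0.21 there, below the threshold.

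Of 45 tested assembly factors, 2 rose and 1 fell in Diff. hepatocytes against hepatoblasts, 10 rose and 0 fell by edgeR in mature hepatocytes (0 fell by DESeq2, 34 at an unadjusted p under 0.05), and 1 was higher and 5 lower in Diff. against mature hepatocytes. Medians were -0.07, 0.58 and -0.40, turning to -0.39, -0.27 and 0.12 with library totals, where 12 were called lower and 0 higher in mature hepatocytes (7920 and 2007 of 17779 over all genes), 4 lower and 1 higher in Diff. hepatocytes, and 3 higher in Diff. against mature hepatocytes. The shares called under TMM were 6.67%, 22.2% and 13.3%, beside 28.9%, 44.8% and 35.8% of all genes. Ecsit and Timmdc1, factors of complex I assembly, rose by 1.34 and 1.28 in mature hepatocytes, or 0.48 and 0.44 with library totals. Ndufaf4, a further complex I factor, rose by 1.43 in Diff. and 1.15 in mature hepatocytes, the latter lost at 0.995 without mature hepatocytes replicate 2 and at 0.30 with library totals. The copper chaperones of complex IV parted: Cox19 was at 16.6 to 18.6 CPM, 12.9 to 17.5 CPM and 36.2 to 46.8 CPM in hepatoblasts, Diff. hepatocytes and mature hepatocytes, and Cox17 at 3.01 to 3.90 CPM, 6.27 to 8.39 CPM and 1.85 to 2.63 CPM. Cox19 was thus highest in mature hepatocytes, with 1.23 against hepatoblasts, and Cox17 in Diff. hepatocytes, with 1.15 against hepatoblasts and 1.82 against mature hepatocytes. With library totals the values against hepatoblasts were 0.37 for Cox19 and 0.82 for Cox17, neither called.

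Of the 14 citric acid cycle genes, 0 were called in Diff. hepatocytes against hepatoblasts by edgeR and by DESeq2, with 11 at an unadjusted p under 0.05. In mature hepatocytes 3 rose and 1 fell against hepatoblasts, and 2 were lower in Diff. against mature hepatocytes (1 by DESeq2). The shares called were 0%, 28.6% and 14.3%, beside 28.9%, 44.8% and 35.8% of all genes. Medians were 0.26, 0.59 and -0.21, turning to -0.06, -0.27 and 0.32 with library totals, with 0 called in Diff. hepatocytes, 2 lower in mature hepatocytes, and 2 higher and 1 lower in Diff. against mature hepatocytes. Suclg2, the GTP-forming subunit of the enzyme that makes succinate, was at 71.9 to 90.4 CPM in hepatoblasts, 62.5 to 78.1 CPM in Diff. and 201 to 245 CPM in mature hepatocytes. It was high in mature libraries alone, like Sdha, at 1.39 against hepatoblasts and -1.67 in Diff. against mature hepatocytes. Sucla2, the ATP-forming partner, rose by 1.16 in mature hepatocytes. With library totals Suclg2 and Sucla2 in mature hepatocytes were at 0.54 and 0.31, neither called. Fh1, fumarase, met the threshold in Diff. against mature hepatocytes at -1.0005 and lost its call by DESeq2, at -0.99, with library totals, at -0.48, and without any 1 of 7 of the 12 libraries, at -0.93 to -0.996.

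Among 17 tested carriers and electron donors next to the chain, 0 rose and 1 fell by edgeR in Diff. hepatocytes against hepatoblasts (0 and 1 by DESeq2, 10 at an unadjusted p under 0.05), 3 rose and 2 fell in mature hepatocytes, and 1 was higher and 2 lower in Diff. against mature hepatocytes. The shares called were 5.88%, 29.4% and 17.6%, beside 28.9%, 44.8% and 35.8% of all genes. Medians were 0.25, 0.35 and -0.10, turning to -0.07, -0.50 and 0.43 with library totals, with 1 lower, 1 higher and 4 lower, and 2 higher. The adenine nucleotide carrier gene Slc25a4, the form known from heart and muscle, was at 145, 198, 206 and 186 CPM in hepatoblasts, 257, 324, 303 and 277 CPM in Diff. and 2.95, 3.40, 3.44 and 2.48 CPM in mature hepatocytes. Mature hepatocytes were far below all other libraries, with log2 fold changes of -5.90 ± 0.160 (SE, adjusted p 4.92e-12) against hepatoblasts and 6.56 ± 0.164 (SE, adjusted p 4.26e-12) for Diff. against mature hepatocytes. Slc25a5, the form made in dividing and most other cells, was at 190 to 233 CPM, 365 to 407 CPM and 356 to 413 CPM and was not called. Slc25a4 thus held 30.3% to 42.2% of the summed RPKM of the pair in hepatoblasts, 33.0% to 36.6% in Diff. hepatocytes and 0.419% to 0.655% in mature hepatocytes. The mesenchymal sums given above were also lowest in mature hepatocytes, and their part was not tested. Etfdh, which passes electrons from fatty acid oxidation to ubiquinone, was at 81.1 to 103 CPM, 141 to 183 CPM and 335 to 463 CPM and rose by 2.09 in mature hepatocytes against hepatoblasts. Ucp2, an inner membrane carrier, was at 194, 74.6, 75.8 and 70.5 CPM in hepatoblasts, 25.6 to 45.6 CPM in Diff. and 18.1 to 25.7 CPM in mature hepatocytes. It fell by 1.69 and 2.14, and by library the highest value was again that of hepatoblasts replicate 1, without which the changes were -1.19 and -1.65. Cycs, cytochrome c, was not called, at 0.75 in Diff. and 0.35 in mature hepatocytes against hepatoblasts, and its testis form Cyct was too low to be tested. With library totals Cycs was at 0.43 and -0.50.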

How the data were processed

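Of 12 deposited libraries, 4 per group, poly(A) RNA counts were used. The deposited values are raw counts made by the authors: reads checked with FastQC 0.11.2, mapped to GRCm38 and counted on genes of Ensembl release 92 with STAR 2.5.2b, duplication assessed with Picard 2.10.2. The strand setting of the counts and removal of duplicates are not stated. Symbols, exon lengths and positions came from GENCODE M21 (Ensembl 96), which held 53620 of 53715 identifiers.

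The 17779 genes above 10 counts in at least 1 library were tested in R 4.3.3 with edgeR 4.0.16 (TMM, quasi-likelihood, group as the only term, 12 libraries), limma 3.58.1 and DESeq2 1.42.0. RPKM is TMM-scaled CPM per kilobase of exon. The SE of a log2 fold change is its absolute value divided by the square root of the F statistic of edgeR's quasi-likelihood test. Sequences of 75 bases in annotated transcripts were compared on both strands. The comparison was also tested on simulated data.

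Members and lists were chosen with earlier results of these data known. Named genes were the mitochondrial genes, paralogue sets, Sdh genes, the 5 called nuclear members with the largest change per direction and comparison, the highest and lowest RPKM per complex, 17 listed genes and 2 per further list and comparison; which are printed, and further genes such as markers, Atp5a1 and genes at promoters, was chosen after the values were seen. Further lists cover regulators, mitochondrial RNA, mitochondrial DNA, mitochondrial ribosomal proteins, assembly factors, the citric acid cycle, carriers and cell type markers.

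Alternatives were DESeq2's Wald test, its size factors in edgeR, glmTreat, library totals, scaling without mitochondrial genes, no filter beyond 1 count, filterByExpr, a fit of only the 8 libraries compared, blocking on replicate number, calls at adjusted p < 0.05 whatever the fold change, each library left out, both first libraries left out, and for shares protein-coding genes as denominator and the median. Gene sets were not tested. Replicates differed by more than counting error (chi-square per gene 6.43 to 99.2). The study's imaging and siRNA data were not analysed.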

Additional observations from a re-analysis of the deposited data

Results flagged for a closer look

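Of 228 groups of 4 libraries examined, 15 held a library whose distance to its nearest neighbour, divided by the range of the group, exceeded the 5% limit of Dixon's test, and chance alone gives about 1 such group in 20. In hepatoblasts replicate 1 these were, in CPM with the range of the other 3 libraries, Sdha at 322.669 (370 to 378), Cox6b2 at 15.4788 (3.68 to 5.52), Atp5g3 at 354.852 (424 to 436), Timmdc1 at 18.2199 (21.4 to 22.0), Ppargc1b at 2.83778 (1.58 to 1.79), Esrra at 22.0896 (27.0 to 27.6), Mrpl49 at 40.0837 (45.7 to 46.9) and Ucp2 at 194.163 (70.5 to 75.8). Among hepatoblast libraries replicate 1 also had the highest erythroid, macrophage and endothelial marker sums, and their part was not tested. In hepatoblasts replicate 4 mt-Co1 was at 4934.94 CPM (4317 to 4342) and the share of nuclear subunit counts at 1.31402% (1.34% to 1.35%). In Diff. hepatocytes replicate 1 Cox6a1 was at 187.81 CPM (216 to 219.8) and Cox17 at 6.26898 CPM (8.04 to 8.39), and in replicate 2 Cox7a1 was at 7.31805 CPM (2.93 to 3.11). In mature hepatocytes replicate 4 Sdhd was at 295.947 CPM (250.2 to 256) and Ucp2 at 18.066 CPM (25.1 to 25.7).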

How the results depend on the processing

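The number of nuclear subunit genes called was 10 in Diff. hepatocytes against hepatoblasts, 17 in mature hepatocytes against hepatoblasts and 6 in Diff. against mature hepatocytes. With the fold threshold inside the test (glmTreat) these were 6, 10 and 3, and with an adjusted p under 0.05 and no fold threshold 53, 71 and 51. With library totals they were 5, 4 and 6, and the 6 were all higher, whereas 2 of the 6 under TMM were higher. The mitochondrially encoded genes called were 0, 7 and 6 in this order, 1 and 3 with library totals in the last 2 comparisons, and 3 in the last with glmTreat. The share of counts on the mitochondrially encoded genes in Diff. hepatocytes was 2.11% of protein-coding counts in place of 1.90%. The cause was not tested beyond what each rule itself changes. Leaving out each library in turn gave 9 to 10, 15 to 19 and 6 to 8 nuclear genes and 0, 6 to 7 and 6 mitochondrially encoded ones.

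The groups use the same replicate numbers, which need not pair samples: between hepatoblasts and Diff. hepatocytes of the same number, correlations of residuals were 0.32, -0.06, 0.25 and 0.18 for replicates 1 to 4, and in the 8 other pairs with a shared number they ran from -0.08 to 0.09. The best partner had the same number in 10 of 24 checks, and whether libraries 1, 3 and 4 share preparations was not tested. With the number as a block the nuclear counts were 10, 17 and 7 and the mitochondrially encoded ones 0, 7 and 6.

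Of 219 fold changes of named genes, 89 were called. With library totals 52 lost and 17 gained the call, with glmTreat 32 lost it, and by DESeq2 1 lost and 1 gained it. Genes with few counts, such as Cox6a2, are limited by depth, and 6 mitochondrially encoded genes could not be assessed.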
